A study of Mus musculus with 26 samples.

Results

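Melanin and melanosome genes were followed in 26 RNA-seq libraries from rd10 mice, a model of retinitis pigmentosa in which the rod phosphodiesterase gene Pde6b is mutated. The set was chosen by name and comprised 9 genes: Dct, Pmel, Tyr, Tyrp1, Oca2, Slc45a2, Mlana, Gpr143 and Mitf. All 9 were found among the 37991 genes of the count table after Ensembl identifiers were matched to symbols. On the NCBIM37 build, which the authors used for alignment, the 3 melanin enzyme genes are Dct (ENSMUSG00000022129, chromosome 14, 118412014 to 118451468, minus strand), Tyr (ENSMUSG00000004651, chromosome 7, 94574910 to 94641943, minus strand) and Tyrp1 (ENSMUSG00000005994, chromosome 4, 80480027 to 80497623, plus strand). Oca2 lies on chromosome 7 (63495130 to 63791887), Pmel on 10 (128143314 to 128157294), Mitf on 6 (97757052 to 97971352), Slc45a2 on 15 (10930476 to 10958988), Mlana on 19 (29772411 to 29782938) and Gpr143 on X (149216464 to 149243189), all on the plus strand.

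Of the libraries, 22 were made from whole retina and 4 from sorted rods, and each treatment was compared with the controls of its own experiment. Mice received intraperitoneal injections of an inhibitor or of saline from PN9 to PN24, daily according to the labels, while the study describes DZNep as given daily at first and every second day later. The retina experiments held 3 control and 3 UNC1999 libraries, 4 control and 2 DZNep libraries, 2 control and 2 UNC0642 libraries, and 3 control and 3 Romidepsin libraries. DZNep and UNC1999 inhibit EZH2, which methylates histone H3K27, UNC0642 inhibits the complex that methylates histone H3K9, and Romidepsin inhibits HDAC1. These animals carried the genotype B6.CXB1-Pde6brd10/Jrd10, controls included, so no library came from a retina without degeneration. UNC1999 was given in a mixture of solvents. Its sequenced controls are described as given saline and its imaged controls as given diluent, and if the former holds, solvent and compound cannot be told apart. The rods came from rd10 mice crossed with B6.Cg-Tg(Nrl-EGFP)1Asw/J, which express EGFP from the rod promoter Nrl, and held 2 control libraries and 2 from mice given the LSD1 inhibitor GSK2879552. Replicates are named as biological in the labels. The labels do not say whether a library held 1 or several retinas.

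Melanin is made inside melanosomes, organelles related to lysosomes. Tyrosinase (Tyr) starts the synthesis from tyrosine, Dct (dopachrome tautomerase) and Tyrp1 act on later intermediates, and Pmel forms the fibrils on which the pigment is laid down. Oca2 and Slc45a2 are transport proteins that set the ionic conditions in the organelle, Mlana takes part in Pmel maturation, Gpr143 is a receptor of the melanosome membrane, and Mitf is the transcription factor that drives many of these genes. In the eye, melanin is made by the retinal pigment epithelium (RPE), by the pigmented layers of the ciliary body and iris, and by melanocytes of the choroid. Neurons and Müller glia of the retina make none, and RPE cells remain attached to a dissected retina in variable amounts.

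The promoters of the enzyme genes are shown because Mitf is known to act on pigment genes through the M-box, a form of the E-box. RefSeq promoter sequences (GRCm38.p6) were at hand for 5 of the 9 members, namely Dct, Tyr, Tyrp1, Oca2 and Mitf, with 7 promoters in total. Those of Pmel, Slc45a2, Mlana and Gpr143 were not used here. The 250 bases before the annotated start of the 3 melanin enzymes follow, 5′ to 3′ on the strand of the gene, with TCATGTG or its reverse complement CACATGA in capitals. They lie at chr14:118052247-118052496 (Dct, minus strand), chr7:87493513-87493762 (Tyr, minus strand) and chr4:80833963-80834212 (Tyrp1, plus strand).
Dct: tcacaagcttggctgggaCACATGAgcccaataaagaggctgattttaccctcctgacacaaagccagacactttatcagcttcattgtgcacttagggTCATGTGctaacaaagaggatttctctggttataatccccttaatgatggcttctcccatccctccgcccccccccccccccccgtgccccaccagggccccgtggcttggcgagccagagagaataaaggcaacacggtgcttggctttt
Tyr: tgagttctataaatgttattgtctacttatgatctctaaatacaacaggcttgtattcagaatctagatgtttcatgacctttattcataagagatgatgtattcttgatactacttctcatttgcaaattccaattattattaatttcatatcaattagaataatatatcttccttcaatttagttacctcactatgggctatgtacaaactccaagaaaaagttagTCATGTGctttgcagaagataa
Tyrp1: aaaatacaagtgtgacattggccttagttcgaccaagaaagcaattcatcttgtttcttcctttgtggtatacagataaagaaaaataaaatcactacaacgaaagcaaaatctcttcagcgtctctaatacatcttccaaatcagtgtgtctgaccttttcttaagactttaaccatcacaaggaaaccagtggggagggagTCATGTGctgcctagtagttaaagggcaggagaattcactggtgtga
On either strand, TCATGTG was found in Dct, Tyr and Tyrp1, and in 3.25% of 32851 promoters of this length. Dct held it 2 times, from 232 to 226 bases before the start on the reverse strand and from 151 to 145 bases on the forward strand. Tyr held it from 22 to 16 bases and Tyrp1 from 47 to 41 bases before the start, both on the forward strand. The shorter E-box CATGTG, which TCATGTG contains, was also present in Oca2 and occurred in 12.3% of promoters. CACGTG was found in no member promoter and in 6.02% of all. A longer run, TCATGTGCT, chosen after the sequences were seen, was shared by Dct, Tyr and Tyrp1 and occurred in 0.335% of promoters. A match describes letters only and does not show binding.

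Each retina library held 13732959 to 36354094 counted reads, and each rod library 7289460 to 19864491. Levels are given as CPM, read counts relative to library size, scaled with TMM factors, and 3 counts correspond to 0.0825 to 0.218 CPM in a retina and 0.151 to 0.412 CPM in rods. A gene was called when its adjusted p-value in edgeR's quasi-likelihood test (Benjamini-Hochberg over all genes tested) was under 0.05 and its absolute log2 fold change (log2FC, treated over control) above 1. DZNep replicate 2 stood apart from the other 21 retinas, with 84.5 summed CPM of 10 lens genes against 2.13 to 7.01 elsewhere, and DZNep results are given with and without it below. Rods changed at the same time as the pigment genes in some experiments: the 12 genes of a rod list summed to 21420 to 40190 CPM in UNC1999 controls and 54150 to 72780 CPM after UNC1999. A level in CPM falls or rises when other RNA changes, and in whole retina fewer cells of a type and less RNA per cell cannot be told apart.

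In the 12 control retinas, pigment genes were weakly but regularly detected. Per kilobase of exon, Dct was the most abundant at 11.1 ± 3.27 CPM/kb (SD, n = 12), followed by Pmel (4.13), Tyrp1 (2.97), Mlana (1.74), Mitf (1.36), Tyr (0.517), Oca2 (0.289), Gpr143 (0.245) and Slc45a2 (0.0854). Dct exceeded Pmel in all 12 libraries, and Mitf exceeded Tyr in all 12 with ranges that did not overlap. The order of the others was less firm: Pmel lay above Tyrp1 in 9 libraries and Mlana above Mitf in 6, and the mean ± SD intervals of Pmel, Tyrp1, Mlana and Mitf overlapped from neighbour to neighbour, as did those of Tyr, Oca2 and Gpr143. On the CPM scale, Dct ran from 15.0 through a median of 27.6 to 42.4 CPM in controls.

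Control retinas differed most in Mlana, Pmel and Tyrp1 among the members with at least 6 counts in every control. Mlana ran from 0.320 to 3.09 CPM, Pmel from 2.50 to 18.2 CPM and Tyrp1 from 2.34 to 16.7 CPM. Mitf was the steadiest, from 7.29 to 10.2 CPM, with a coefficient of variation of 10.54% against 27.8% for Tyr and 78.3% for Mlana. Gene-level counts do not separate the melanocyte form of Mitf from its other transcripts. Slc45a2 was at the limit of detection, with 1 to 12 counts per control library.

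Several of the structural and enzyme genes varied together between control retinas, described here over 12 libraries in which all genes share depth and dissection. Pearson's r of log2 CPM was 0.877 between Dct and Mlana (Spearman's rho 0.790), 0.830 between Dct and Tyrp1 (rho 0.846) and 0.802 between Pmel and Tyrp1 (rho 0.790). Without the 2 libraries farthest from the median of the first gene of each pair, r was 0.808, 0.834 and 0.630. For the melanosome transport and receptor pair Oca2 and Gpr143 it was 0.740 (rho 0.483) and fell to 0.0227 without 2 such libraries, on which that relation rests. With Mitf r ran from −0.247 (Slc45a2) to 0.312 (Tyrp1), and without 2 such libraries from −0.401 (Oca2) to 0.596 (Tyrp1). The summed CPM of the members was also set against that of marker lists, on the log2 scale. Pearson's r was 0.670 for 8 ciliary epithelium genes, 0.653 for 10 choroid stroma genes, 0.553 for 10 lens genes and 0.386 for 12 RPE genes. It was 0.437 for 6 Müller glia genes, 0.352 for 7 bipolar cell genes, 0.00210 for 12 rod genes and −0.307 for 7 melanocyte lineage genes. Spearman's rho was 0.53, 0.63, 0.36, 0.31, 0.17, 0.17, −0.063 and −0.21 in the same order. The 9 controls of library series G-981 alone leave out the UNC1999 experiment. There r was 0.579, 0.609, 0.543, 0.586, 0.181, 0.0329, 0.104 and −0.115, and rho 0.45, 0.72, 0.18, 0.38, −0.18, −0.23, −0.067 and 0.05. Such sums mostly follow few genes. Over the 12 controls, Ednrb (mean 15.0 CPM) and Kit (13.5) led the melanocyte list, and Ttr (50.2), Rrh (22.4) and Rgr (19.6) the RPE list.

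Of a melanocyte lineage list of 7 genes, Pax3, a transcription factor of that lineage, had 0 counts in 21 retinas and 1 count in the other. Sox10, which melanocytes share with other neural crest derivatives, was at 0.221 to 1.81 CPM. Mc1r, the melanocortin receptor, was at 1.07 to 7.34 CPM in retinas and at 7.72 to 11.7 CPM in sorted rods, which held almost no melanin gene RNA. Mc1r overlaps the gene Gm20388 on the same strand, and reads in the overlap may be split or moved. The rest of the list was detected in every retina. Kit ran from 7.27 to 16.4 CPM, Ednrb from 9.8 to 45.1, Erbb3 from 0.516 to 3.19 and Mlph from 0.505 to 4.67. Kit, Ednrb and Mlph may also be made by other cells of the eye. Markers of the RPE were present in every retina, among them Rpe65, the visual cycle isomerase, at 1.14 to 46.9 CPM and the retinal opsin Rgr, which Müller glia also express, at 10.2 to 138 CPM.

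**Figure D1:**
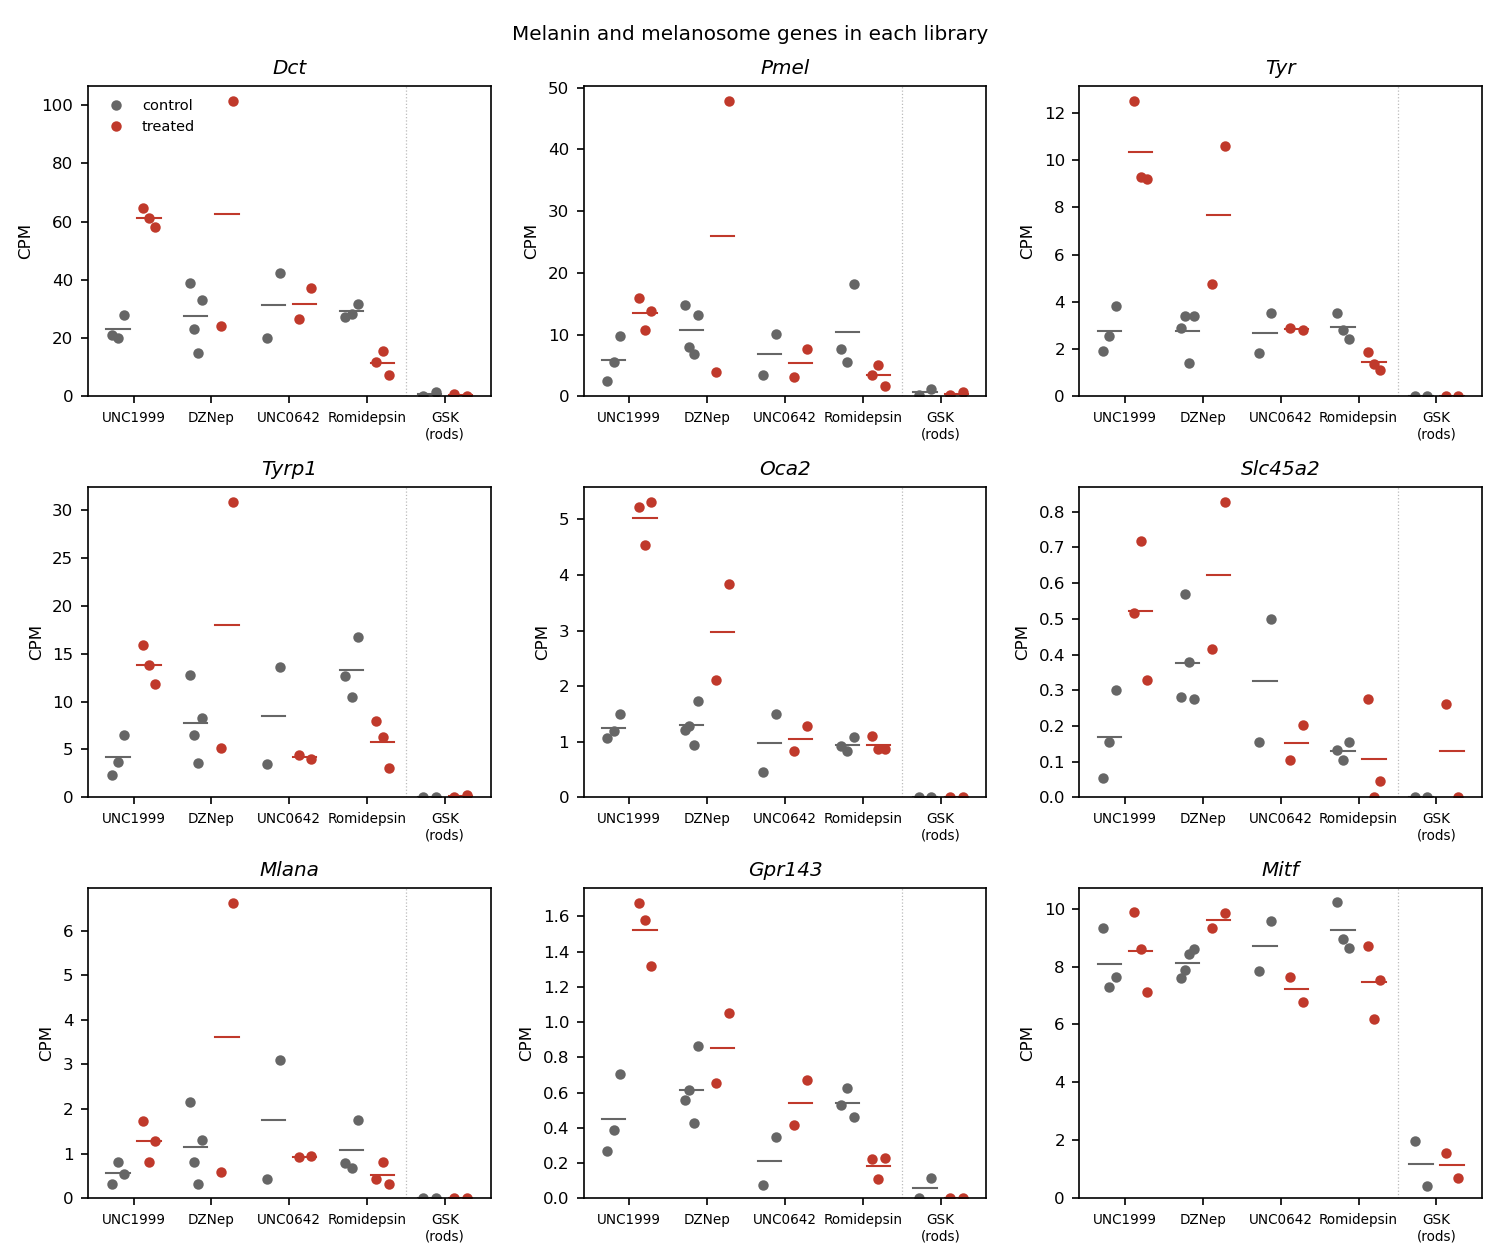
CPM of each of the 9 genes (vertical axes, linear from 0) in every library of the 5 experiments (horizontal axis); grey points are controls, red points treated libraries and horizontal lines group means. Dct sits at 58.3 to 64.5 CPM in the 3 UNC1999 retinas against 20.2 to 27.9 CPM in their controls, DZNep replicate 2 reaches 101.5 CPM, and sorted rods stay at or below 1.47 CPM.

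After UNC1999, the melanin enzymes Tyr and Dct and the transporter Oca2 rose in the retina, by log2FC values between 1.42 and 2.00. Tyrp1, Gpr143, Pmel, Mlana and Mitf were not called. All 8 members that passed the filter on low counts had positive log2FC values, with a median of 1.57 against 0.00 for all 15775 genes tested. Gpr143 (5 to 14 counts in controls) and Mlana (6 to 21) passed this filter only through their higher counts after UNC1999, so their signs add no support. In these 3 + 3 libraries, 3 of the 8 were called higher, where 0.298% of all tested genes were.

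Dct was at 21.1, 20.2 and 27.9 CPM in the controls and at 64.5, 61.2 and 58.3 CPM after UNC1999. Every treated library held more than 2 times the level of the highest control, and the log2FC was 1.42 ± 0.12 (SE, adjusted p = 0.00698). Tyr was at 1.92, 2.54 and 3.82 CPM in the controls and at 12.5, 9.28 and 9.19 CPM after UNC1999. The groups were far apart, and the log2FC was 1.90 ± 0.25 (SE, adjusted p = 0.0290). Oca2 was at 1.06, 1.20 and 1.51 CPM in the controls and at 5.22, 4.55 and 5.32 CPM after UNC1999, a log2FC of 2.00 ± 0.20 (SE, adjusted p = 0.0104).

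Tyrp1 was at 2.34, 3.70 and 6.53 CPM in the controls and at 15.9, 13.8 and 11.8 CPM after UNC1999. Its groups did not overlap, yet its log2FC of 1.72 ± 0.32 (SE) missed the threshold with an adjusted p = 0.0533. Gpr143 was at 0.266, 0.386 and 0.703 CPM in the controls and at 1.68, 1.58 and 1.32 CPM after UNC1999, with a log2FC of 1.74 (adjusted p = 0.0562). Pmel, the fibril protein, had a log2FC of 1.18 (adjusted p = 0.127) and Mlana of 1.12 (adjusted p = 0.150), and for both the treated libraries lay above the controls. The nearest values for Mlana were 0.810 and 0.814 CPM. Mitf had a log2FC of 0.08 (adjusted p = 0.811) with overlapping groups. Slc45a2 was not tested, and its highest control (0.301 CPM) lay just below its lowest treated library (0.330 CPM).

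For 7 of the 8 tested members every UNC1999 library lay above every control, as did 13.5% of all tested genes. The 7 include Gpr143 and Mlana, which passed the filter only through the UNC1999 libraries. The likelihood ratio test and DESeq2 each called 6 of the 8, adding Tyrp1, Gpr143 and Pmel, and called 1.1% and 0.837% of all genes higher. Without control replicate 2 or without UNC1999 replicate 2 no member was called, where 4 of 15832 and 5 of 15939 tested genes were called higher. Without control replicate 1 or UNC1999 replicate 3 only Dct was called, without UNC1999 replicate 1 Dct and Oca2, and without control replicate 3 the count was 6. Over all genes, 15 of 15988, 18 of 15917, 23 of 16097 and 286 of 16107 were called higher in these fits, in the same order. For the tested members other than Mitf, log2FC values ran from 0.83 to 2.19 over all alternatives, and for Mitf from −0.04 to 0.20.

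The RPE list moved with these genes. Of its 12 genes, 12 had positive log2FC values and 9 were called higher (4 without control replicate 2, 5 without UNC1999 replicate 2 and 6 with the replicate number as a block), and their summed level was 146 to 175 CPM in controls and 462 to 541 CPM after UNC1999. Rpe65 rose by 2.37 (adjusted p = 0.0345), Rgr by 2.09 (adjusted p = 0.000299), the retinol dehydrogenase Rdh5 by 1.75 and Ttr, a carrier of retinol-binding protein, by 1.40 on the log2 scale by the quasi-likelihood test, whereas the anion channel gene Best1 had a value of 0.35 (adjusted p = 0.507). The sums of genes of other pigmented or adherent tissue overlapped between the groups. Choroid stroma genes summed to 51.5 to 71.8 CPM in controls and 58.6 to 63.0 CPM after UNC1999, ciliary epithelium genes to 92.9 to 136 CPM and 107 to 159 CPM, and lens genes to 2.13 to 3.74 CPM and 2.35 to 5.68 CPM. No gene of these 3 lists was called by this test, and 1 ciliary epithelium gene was by the likelihood ratio test and by DESeq2. The ciliary and choroid sums mostly follow few genes. Over the 12 control retinas Col9a1 averaged 144.4 CPM and the next ciliary gene, Zic1, 17.62 CPM. Pdgfra and Col1a2 had the highest means of the choroid stroma list. Gene by gene, 4 of 8 choroid stroma and 3 of 7 ciliary epithelium genes tested had positive log2FC values, the highest ciliary value being 2.18. Of the 6 melanocyte lineage genes tested, 5 had positive values and 0 were called (1 higher and 1 lower by the likelihood ratio test, 1 higher by DESeq2). Pax3 had 0 counts in all 6 libraries, and Sox10 had a log2FC of 1.44 (adjusted p = 0.0551). The part of RPE content or of the rod change in the pigment gene result was not tested.

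**Figure D2:**
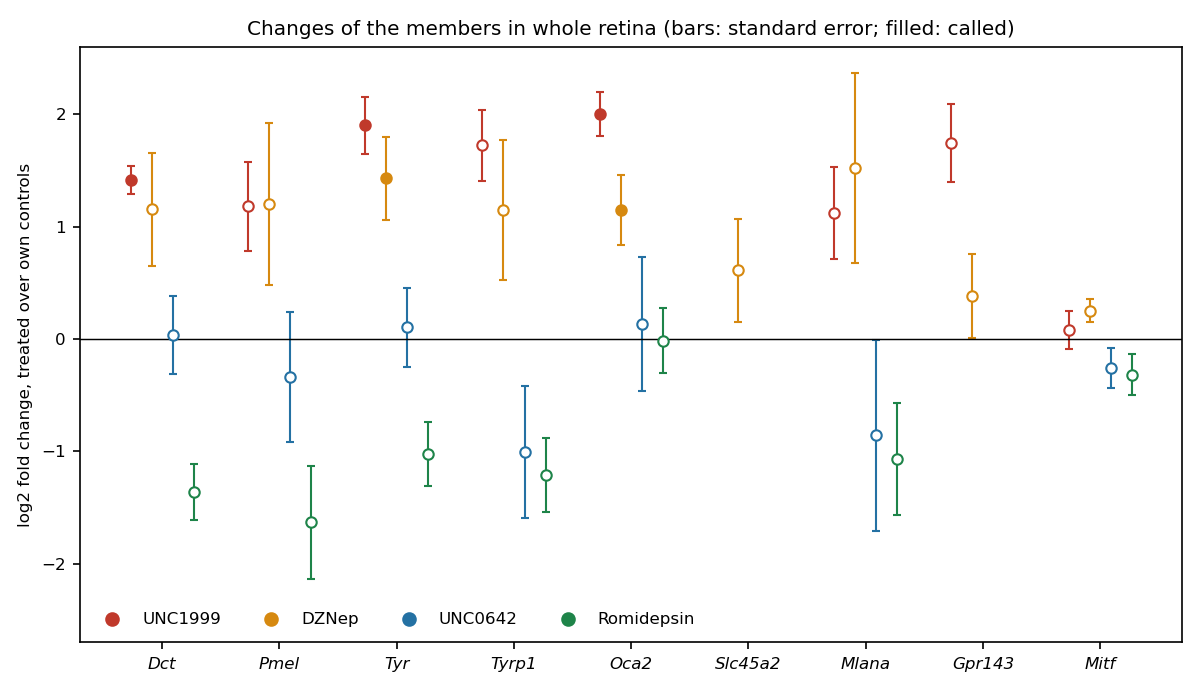
Log2FC of each gene, treated over the controls of its own experiment, in the 4 retina experiments; bars are standard errors and filled points are genes called by edgeR's quasi-likelihood test. UNC1999 and DZNep values lie above 0 for every gene tested, with 3 and 2 filled points, and Romidepsin values lie below 0 for the 7 tested genes, with none filled.

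After DZNep, the picture depended on the library. All 9 members passed the filter and had positive log2FC values with a median of 1.15 (0.00 for all 16477 genes), and Tyr and Oca2 were called higher, against 1.02% of all tested genes. Slc45a2, with 6 to 12 counts in controls, passed the filter only through control replicate 2 and DZNep replicate 2. Without DZNep replicate 2, 5 of the 9 were positive, the median was 0.08 and 0 were called. DZNep replicate 2 lay above the 4 controls for all 9 members, whereas DZNep replicate 1 did so for 3, was within the control range for 5 and below it for 1. For 3 of the 9 (Tyr, Oca2 and Mitf) both libraries lay above every control, as for 21.8% of all tested genes.

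Tyr was at 2.90, 3.41, 1.42 and 3.39 CPM in the controls and at 4.75 and 10.6 CPM after DZNep. Both treated libraries lay above the controls and the log2FC was 1.43 ± 0.37 (SE, adjusted p = 0.0250). Oca2 was at 1.22, 1.28, 0.948 and 1.73 CPM in the controls and at 2.11 and 3.84 CPM after DZNep, a log2FC of 1.15 ± 0.31 (SE, adjusted p = 0.0293). Without DZNep replicate 2 neither was called, and their log2FC values were 0.78 and 0.71. Without control replicate 2 or control replicate 3, only Tyr was called.

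Dct was at 39.1, 23.3, 15.0 and 33.1 CPM in the controls and at 23.98 and 101.5 CPM after DZNep. The first DZNep library was below the control mean of 27.6 CPM and the second the highest of all 22 retinas. Pmel was at 14.9, 7.92, 6.87 and 13.2 CPM in the controls and at 4.01 and 47.9 CPM after DZNep, so that 1 treated library was below and the other above every control. Tyrp1 (5.20 and 30.9 CPM) and Mlana (0.594 and 6.62 CPM), like Dct, had the first library within the control range and the second above it. None of these 4 was called with both libraries. With DZNep replicate 2 as the only treated library, the log2FC values of all 4 lay between 1.90 and 2.54. With DZNep replicate 1 as the only one, all 4 were negative, at −0.19 (Dct), −1.40 (Pmel), −0.57 (Tyrp1) and −0.93 (Mlana).

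Markers of neighbouring tissue differed between the same libraries. Ciliary epithelium genes summed to 142 CPM in DZNep replicate 1 and 294 CPM in replicate 2 (144 to 211 CPM in controls), and lens genes to 4.40 and 84.5 CPM. The ciliary and forebrain transcription factor Otx1 was at 0.773 and 7.30 CPM, and the lens crystallin Cryaa reached 37.4 CPM in replicate 2. RPE genes summed to 278 and 337 CPM, both above the control range of 90.8 to 206 CPM. Of the 12 RPE genes 8 were called higher. With DZNep replicate 1 as the only treated library, their median log2FC was 1.185, and that of the members 0.08. Rpe65 was at 24.1 and 24.8 CPM in the DZNep libraries, nearly equal, and at 3.37 to 8.50 CPM in controls. Of the 6 melanocyte lineage genes tested 1 was called, Sox10, with a log2FC of 1.72 (adjusted p = 0.0214). Sox10 was not called without DZNep replicate 2 (1.61, adjusted p = 0.0862), without DZNep replicate 1 or without control replicate 3, and Pax3 had 0 counts in all 6 libraries. Rod genes summed to 19380 to 32190 CPM in controls and 58300 to 60580 CPM after DZNep. The part of lens or ciliary tissue, of RPE content or of the rod change in the pigment gene levels was not tested.

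After UNC0642, no pigment gene was called in either direction. The quasi-likelihood test called 0 of the 16321 genes tested (0%), with 2407 at an unadjusted p-value under 0.05, while 23 genes passed upwards and 11 downwards by likelihood ratio, and 1 and 3 in DESeq2. Of the members, 7 passed the filter, and none of them had an unadjusted p-value under 0.05. The likelihood ratio test and DESeq2 also called none of the 7. Log2FC values ran from −1.01 (Tyrp1, adjusted p = 0.436) to 0.13 (Oca2). The 2 controls differed from each other more than the 2 treated libraries did: Dct was at 20.1 and 42.4 CPM in controls and 26.5 and 37.2 CPM after UNC0642, and Mlana at 0.424 and 3.09 CPM in controls and 0.930 and 0.940 CPM after UNC0642. Tyrp1 was at 3.47 and 13.6 CPM in controls and 4.39 and 3.96 CPM after UNC0642. Without control replicate 1, the lower of the 2, only 1 control was left and the log2FC of Tyrp1 was −1.70. In that fit the median log2FC was −1.30 for 7 ciliary epithelium genes and −1.29 for 9 choroid stroma genes. Control replicate 2 also had more of the ciliary epithelium list (311 against 135 CPM) and of the choroid stroma list (184 against 95.6 CPM), and Dcn, a stromal proteoglycan, was at 12.0 against 0.578 CPM. RPE genes summed to 186 and 202 CPM after UNC0642 and 92.0 and 166 CPM in controls, with 0 of 12 called (1 by the likelihood ratio test and 0 by DESeq2). Slc45a2 and Gpr143 were not tested, with at most 10 counts per library.

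After Romidepsin, values of the melanin enzymes and of Pmel were lower than in every control, but none passed the threshold of the quasi-likelihood test. All 7 tested members had negative log2FC values, with a median of −1.07 (−0.01 for all 16049 genes). The test called 0 of the 7, where 0.156% of all tested genes were called lower, and 4 (Dct, Tyrp1, Tyr and Pmel) had an unadjusted p-value under 0.05. The likelihood ratio test called these 4 lower and DESeq2 called Dct, Pmel and Tyrp1, where 1.35% and 1.02% of all genes were called lower.

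Dct was at 27.4, 28.4 and 31.7 CPM in the controls and at 11.7, 15.5 and 7.21 CPM after Romidepsin. Each treated library lay below every control, with a log2FC of −1.36 ± 0.25 (SE, adjusted p = 0.0515). Tyrp1 was at 12.7, 10.5 and 16.7 CPM in the controls and at 8.01, 6.29 and 3.10 CPM after Romidepsin, a log2FC of −1.21 (adjusted p = 0.0986). Tyr was at 3.52, 2.81 and 2.42 CPM in the controls and at 1.88, 1.36 and 1.09 CPM after Romidepsin, with a value of −1.02 (adjusted p = 0.103). Pmel was at 7.70, 5.62 and 18.2 CPM in the controls and at 3.53, 5.15 and 1.64 CPM after Romidepsin, with a value of −1.63 (adjusted p = 0.127). These 4 genes had groups that did not overlap, as had 12.1% of all tested genes with the treated libraries below.

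Oca2 differed from the enzymes, with 0.929, 0.832 and 1.08 CPM in the controls and 1.10, 0.868 and 0.867 CPM after Romidepsin. Its log2FC was −0.02 (adjusted p = 0.985), and the groups overlapped. Mlana (−1.07) and Mitf (−0.32) also had overlapping groups. Gpr143 was not tested in this fit, with 8 to 12 counts in controls and 2 to 5 after Romidepsin. Without Romidepsin replicate 2, Dct was called lower, and in the other fits that left out 1 library no member was. Over all genes, 46 of 16320 were called lower without Romidepsin replicate 2, and from 0 to 121 in the other fits.

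RPE genes were lower in the same libraries but also not called. They summed to 128 to 136 CPM in controls and 78.5 to 89.4 CPM after Romidepsin, with 10 of 12 log2FC values negative and 0 called, and 8 had an unadjusted p-value under 0.05 in that direction. The likelihood ratio test and DESeq2 each called 4 of them lower. Rpe65 had a value of −1.39 (adjusted p = 0.0666). Choroid stroma genes summed to 111 to 130 and 94.2 to 107 CPM, and ciliary epithelium genes to 294 to 361 and 230 to 338 CPM. Of the choroid stroma list, Col1a1, a fibrillar collagen, rose by 1.80 (adjusted p = 0.0269). Rod genes summed to 15530 to 25250 CPM in controls and 25680 to 32990 CPM after Romidepsin, in the direction opposite to the pigment genes. Other retinal cell lists had lower sums without overlap: 7 bipolar cell genes at 2014 to 2145 CPM in controls and 1313 to 1567 CPM after Romidepsin, and 6 Müller glia genes at 4432 to 5658 and 2887 to 3722 CPM. All 7 and all 6 had negative log2FC values, with medians of −0.52 and −0.69, and 0 were called (1 Müller glia gene by the likelihood ratio test and by DESeq2). Lens genes summed to 5.64 to 6.54 and 2.96 to 5.10 CPM. The part of RPE content, of the rod change or of these lists in the lower levels was not tested.

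**Figure D3:**
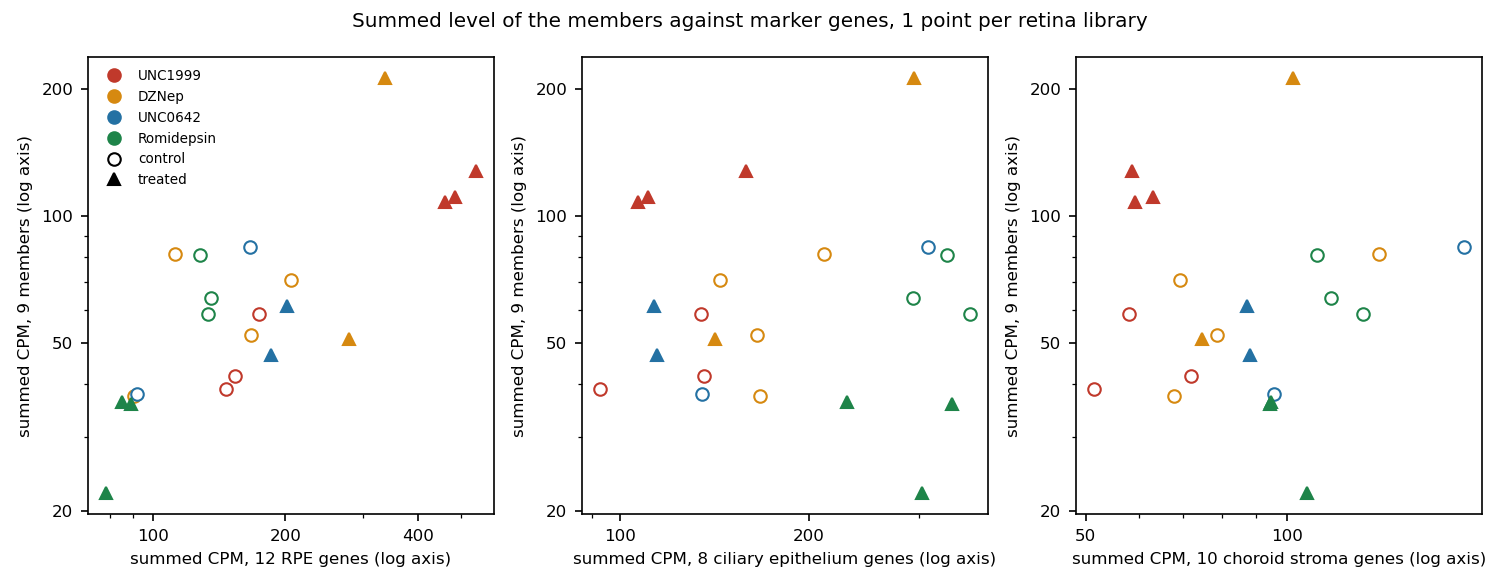
Summed CPM of the 9 members against the summed CPM of RPE, ciliary epithelium and choroid stroma genes (log axes), 1 point per retina library; open circles are controls and triangles treated retinas, coloured by experiment. The 3 UNC1999 retinas lie at 108 to 128 CPM for the members and 462 to 541 CPM for RPE genes, above all 12 controls on both of these axes but within the control ranges for ciliary epithelium and choroid stroma genes, and DZNep replicate 2 is highest for the members at 213 CPM.

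The effects of UNC1999 and Romidepsin on pigment genes differed from each other. In 1 fit of the 22 retinas, the UNC1999 effect exceeded the Romidepsin effect at an adjusted p-value under 0.05 for 5 of the 9 members, as for 2.15% of the 17274 genes tested. The difference in log2FC was 2.92 for Tyr (SE 0.51, adjusted p = 0.00564), 2.94 for Tyrp1 (adjusted p = 0.0449), 2.77 for Dct (adjusted p = 0.0130), 3.24 for Gpr143 (adjusted p = 0.00781) and 2.01 for Oca2 (adjusted p = 0.0227). For Mitf it was 0.40 (adjusted p = 0.279). With 1 library of these experiments left out at a time, Tyr, Dct and Gpr143 were among those passing in the fits with the lowest count, which was 3. The UNC1999 libraries carry another library series in the labels (H-50) than the Romidepsin libraries (G-981), each with its own controls.

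Against DZNep and UNC0642, no member differed at this threshold in the quasi-likelihood test, as 0.00579% and 0% of all genes did in the same direction. The UNC1999 effect less the DZNep effect ran from −0.43 (Mlana) to 1.34 (Gpr143), and 1 member had an unadjusted p-value under 0.05. Without DZNep replicate 2 it ran from −0.10 (Mitf) to 2.61 (Pmel, adjusted p = 0.625), with 6 members under 0.05 before adjustment and 0 after. The likelihood ratio test and DESeq2 counts for these differences were also 0. The UNC1999 effect less the UNC0642 effect was 1.80 for Tyr (SE 0.56, adjusted p = 0.260), 1.87 for Oca2 (SE 0.54, adjusted p = 0.251), 2.73 for Tyrp1 (SE 0.94, adjusted p = 0.283), 2.62 for Slc45a2 (SE 1.10, adjusted p = 0.356) and 1.38 for Dct (SE 0.65, adjusted p = 0.407). These 5 members were under 0.05 before adjustment. With standard errors of this size, the 3 treatments are not shown to act alike.

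Ratios between members differed between groups for some pairs and overlapped for others. In reads within a library, which need no scaling between libraries, Pmel ran from 1.31 to 7.51 per Tyr read in the 12 controls, with a median of 2.44. After UNC1999 the ratio was 1.16 to 1.50, against 1.31 to 2.55 in its own controls, and these ranges overlapped. The 2 DZNep libraries held 0.844 and 4.51 Pmel reads per Tyr read, the first below the DZNep control range of 2.32 to 5.13. Oca2 per Tyr read was 0.264 to 0.447 in the Romidepsin controls and 0.588 to 0.792 after Romidepsin, without overlap, whereas the UNC1999 groups overlapped at 0.395 to 0.556 and 0.418 to 0.578. Per Tyr read, Dct was at 7.30 to 11 in UNC1999 controls and 5.15 to 6.60 after UNC1999, and Mlana at 0.145 to 0.318 and 0.0876 to 0.139, both without overlap. Mlana had only 6 to 21 counts in these controls and 17 to 31 after UNC1999. Tyrp1 per Tyr read overlapped, at 1.22 to 1.71 in UNC1999 controls and 1.27 to 1.48 after UNC1999. These ratios were chosen after the values were seen and were not tested.

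**Figure D4:**
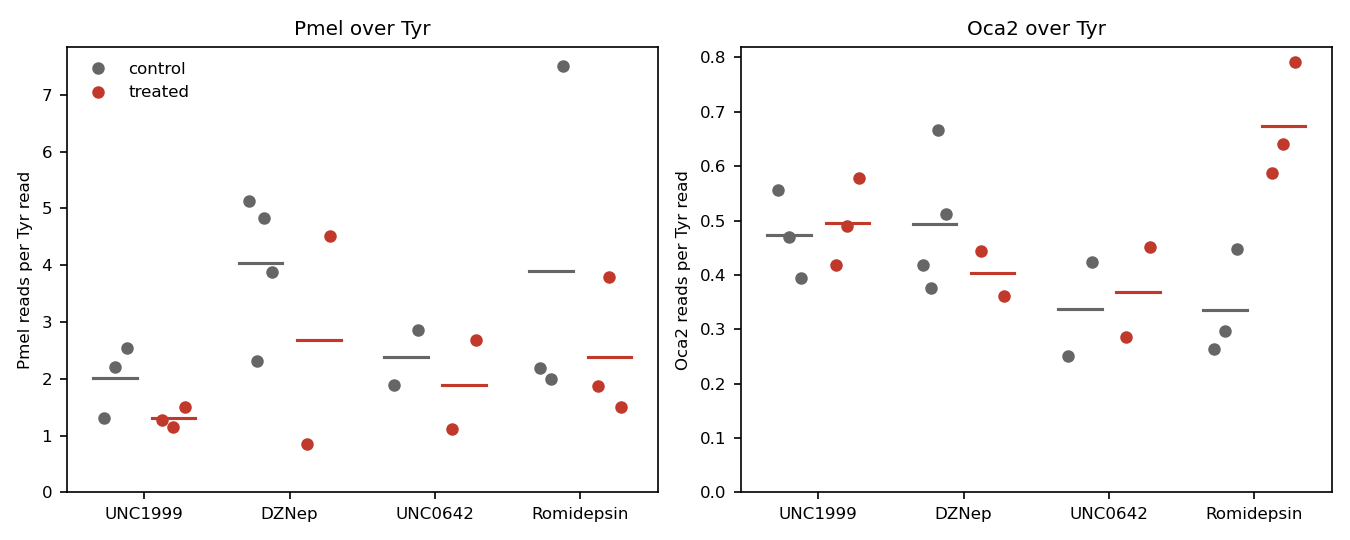
Reads of Pmel (left) and Oca2 (right) per read of Tyr in each whole retina library (vertical axes, linear from 0), by experiment; grey points are controls, red points treated libraries and horizontal lines group means. Pmel per Tyr spans 1.31 to 7.51 in controls, and Oca2 per Tyr lies higher in the 3 Romidepsin retinas (0.588 to 0.792) than in their controls (0.264 to 0.447).

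Sorted rods held almost none of this RNA. Tyr, Oca2 and Mlana had 0 counts in all 4 libraries, Tyrp1 had 2 counts in 1 of them, and Gpr143 had 2 counts in 1. Dct had 1 and 25 counts in controls and 12 and 2 counts after GSK2879552, and Pmel 1, 21, 3 and 7 counts in the same order. Slc45a2 had 5 counts in 1 treated library. Mitf, with 7 to 30 counts, was the 1 member tested, with a log2FC of 0.03 ± 0.96 (SE, adjusted p = 0.974), and the quasi-likelihood test called 0% of 14478 genes higher and none lower, with 711 at an unadjusted p-value under 0.05 (44 higher and 24 lower by the likelihood ratio test, 31 and 16 by DESeq2). In these libraries Rpe65 and Ttr had 0 counts as well. A count of 0 allows up to 0.151 to 0.412 CPM, for counting error only, and the rods were sequenced with another kit than the retinas.

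Few other melanosome genes were called. Of 26 further genes of melanosome biogenesis and transport, all tested, 1 was called higher after UNC1999 and 1 after DZNep, with medians of −0.04 and 0.02. The list summed to 1489 to 2080 CPM in retinas and also to 1145 to 1210 CPM in sorted rods. Its medians therefore do not describe pigment cells alone. After UNC1999, 2 were lower by the likelihood ratio test and 1 by DESeq2. The gene called higher in both experiments was Slc24a5, an ion exchanger needed for melanin synthesis. By the quasi-likelihood test its log2FC was 1.89 (adjusted p = 0.0269) after UNC1999 and 1.45 (adjusted p = 0.00727) after DZNep. With 1 library left out, its UNC1999 call was kept without control replicate 3 and lost in the other 5 fits (log2FC 1.66 to 2.00), and its DZNep call was kept in all 6. With the replicate number as a block it was called in neither. It was at 1.00 to 1.71 CPM in UNC1999 controls and 4.83 to 6.06 CPM after UNC1999. Its reads may be shared with Myef2, which overlaps it on the other strand, since how strand was treated in counting is unknown, and sorted rods held 92.2 to 128 CPM at Slc24a5. Pmel likewise overlaps Dgka on the other strand. Gpnmb, a melanosomal glycoprotein that macrophages also express, had a value of −1.87 after UNC1999 (adjusted p = 0.0955), and Rab38, a small GTPase of melanosome biogenesis, one of −0.96 (adjusted p = 0.0983). Trpm1, a channel that melanocytes and ON bipolar cells express, was at −0.22 (adjusted p = 0.142). No gene of this list was called after UNC0642 or Romidepsin, where 4 and 7 were under 0.05 before adjustment. In these 2 comparisons the likelihood ratio test and DESeq2 each called 0 and 2 of its genes, the 2 lower.

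Over the 22 retinas, the 10 genes most like the members were taken from 14939 genes with a mean of at least 1 CPM, by Pearson's r of log2 CPM with the mean of the 9 members. They were Tspan10 (r = 0.863), Rpe65 (0.837), Mfrp (0.837), Cpxm2 (0.827), Col4a3 (0.815), Ptgds (0.803), Tmem72 (0.800), Stra6 (0.794), Slc24a5 (0.789) and Calml4 (0.789). Rpe65, Mfrp and Stra6 belong to the RPE list, and none to the ciliary, choroid or lens lists. The limit of 1 CPM kept Msx1 and Sfrp5 (ciliary), Lum, Dpt and Mfap5 (choroid) and several lens genes out of the ranking. It kept out no gene of the RPE list. The 22 points include the treated groups, so that libraries high in all of these genes after UNC1999 and DZNep weigh in each value. Without DZNep replicate 2, 6 of the 10 were again among the 10 highest, and r of the 10 ran from 0.721 (Calml4) to 0.857 (Cpxm2). Of the RPE list, Rpe65 kept rank 2, Mfrp moved from rank 3 to 10 and Stra6 from 8 to 16.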

How the data were processed

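Libraries were grouped by the labels, with replicate numbers as names only. The number at the end of the genotype and of the compound UNC1999 grows along the labels by 1 per library, and titles were used instead. The authors trimmed reads with BBDuk, aligned them to NCBIM37 with HISAT2 2.2.1 and counted them per Ensembl gene with HTSeq 0.11.2, and the deposited values are raw counts. Strand setting of the counting is not given in the sources used here. Reads shared by overlapping genes may be split or moved by this counting. Each experiment was filtered with filterByExpr, scaled by TMM and tested with the quasi-likelihood test of edgeR 4.0.16 (R 4.3.3). The study used the likelihood ratio test, which was an alternative here beside DESeq2 1.42.0. Adjusted p-values (Benjamini-Hochberg) given without a tool are from the quasi-likelihood test. CPM were scaled over the 22 retinas and over the 4 rod libraries separately. Log2 CPM used a prior count of 2. Differences between treatments were contrasts in 1 fit of 22 retinas. Symbols and exon lengths came from GENCODE M1. No 2 replicates were copies: the lowest chi-square per gene in 23 pairs was 3.72. Members and lists were chosen with earlier results of these data known. Named beside the members were melanosome genes called in a retina comparison, Slc24a5, Rab38, Gpnmb, Trpm1, preset markers of each list and the 10 most similar genes. Tests were tried on simulated data.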

Additional observations from a re-analysis of the deposited data

Results flagged for a closer look

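The change after UNC1999 differed from that after Romidepsin for 5 members by a test of the difference itself, a contrast of both effects in the 22 retinas (edgeR's quasi-likelihood test, adjusted over all genes). The differences in log2 fold change were 2.92 for Tyr, 2.94 for Tyrp1, 2.77 for Dct, 3.24 for Gpr143 and 2.01 for Oca2. For Tyr, Tyrp1, Dct and Gpr143 all 3 UNC1999 libraries lay above their controls and all 3 Romidepsin libraries below theirs, while Oca2 overlapped between the Romidepsin groups. The summed RPE genes moved in the same directions (146 to 175 against 462 to 541 CPM for UNC1999, and 128 to 136 against 78.5 to 89.4 CPM for Romidepsin), and their part in the difference was not tested. Library series and treatment cannot be told apart between these experiments. In the 4 DZNep controls, the group of a size that could be looked at, none of the 9 members had a library far from the others.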

How the results depend on the processing

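For UNC1999, 3 members were called higher by the quasi-likelihood test, 6 by the likelihood ratio test and by DESeq2, 5 with no filter on low counts, and from 0 to 6 with 1 library left out. Over all genes, 47 of 15775 were called higher by the quasi-likelihood test, 174 by the likelihood ratio test and 132 by DESeq2. With no filter 128 of 22660 were, and with 1 library left out from 4 to 286. For DZNep, 2 were called higher by the quasi-likelihood test, 3 with no filter on low counts, and 1 or 2 with 1 control left out. Over all genes, 168 of 16477 were called higher by the quasi-likelihood test and 199 of 23711 with no filter. With 1 control left out, from 135 to 226 were. With only 1 treated library left, the median log2 fold change of the members was 0.08 without treated replicate 2 and 1.90 without treated replicate 1. For Romidepsin, 0 members were called lower by the quasi-likelihood test, 4 by the likelihood ratio test, 3 by DESeq2, 3 with no filter on low counts, 2 (Dct and Gpr143) with all 22 retinas in 1 fit and from 0 to 1 with 1 library left out. Over all genes, 25 of 16049 were called lower by the quasi-likelihood test, 217 by the likelihood ratio test and 163 by DESeq2. With no filter 156 of 23466 were, in the fit of 22 retinas 208 of 17274, and with 1 library left out from 0 to 121. For UNC0642, 1 (Tyrp1) was called lower with no filter, where 132 of 23117 genes were. The larger UNC1999 effect against Romidepsin held for 5 members by the quasi-likelihood test and for 3 to 5 with 1 library left out. Over all genes, 372 of 17274 passed in this direction, and from 119 to 1012 with 1 library left out. Counts of lower members, left-out libraries of the last contrast and the similarity ranking without 1 library were chosen after seeing the data.

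Signs turned in 20 fits of single members. With 1 DZNep experiment library left out, log2 fold changes ran from −0.19 to 1.90 for Dct, −1.40 to 2.18 for Pmel, −0.57 to 2.01 for Tyrp1 and −0.93 to 2.54 for Mlana, the lowest without treated replicate 2 and the highest without treated replicate 1. Mitf ran from −0.039 to 0.20 for UNC1999. For UNC0642 the ranges were −0.43 to 0.68 for Dct (−0.23 in another fit), −1.07 to 0.62 for Pmel (also 0.17), −0.31 to 0.65 for Tyr, −1.70 to 0.29 for Tyrp1, −0.53 to 1.17 for Oca2 (also −0.20) and −1.73 to 1.15 for Mlana. For Romidepsin Oca2 ran from −0.14 to 0.093 (also 0.043 and 0.052). In rods Mitf was at −0.021 in DESeq2 and ran from −0.79 to 1.48 (also −0.68) with 1 library left out. The cause was not tested.

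With the replicate number as a block, DZNep called 1 member (Tyr) and UNC1999 called 2 (Dct and Oca2). Over all genes, 97 of 16477 and 15 of 15775 were called higher in these fits. The numbers do not pair the samples: deviations of same-numbered libraries correlated between −0.279 and 0.230. Depth limited Slc45a2 and Gpr143 (12 and 22 counts at most in controls).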
